A study of Homo sapiens with 6 samples.

Results

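The 10 genes described here encode proteases of the ADAM and ADAMTS families: ADAM9, ADAM12, ADAM15, ADAM19, ADAMTS1, ADAMTS2, ADAMTS4, ADAMTS5, ADAMTS9 and ADAMTS12. They were taken by gene name from a deposited table of 58735 genes, and all 10 names were found there. The other widely studied sheddases of the ADAM family, ADAM10 and ADAM17, are not among them and are given beside them. Expression was measured by RNA sequencing in the human cell line ARPE-19, which is established from retinal pigment epithelium (RPE). The cells overexpressing CD51-ICD (OE CD51 ICD, 3 libraries) were compared with control cells labelled NC, of genotype WT (3 libraries). CD51 is the integrin alpha V subunit, encoded by ITGAV. The labels spell out neither ICD nor the construct and name no vector in the NC cells. They do not tie the replicates to different cultures, so the spread behind each p-value may be technical.

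ADAM proteases sit in the cell membrane and cut the outer parts off other membrane proteins, among them growth factor precursors, receptors and adhesion molecules. Beside the metalloprotease domain they carry a disintegrin domain that can bind integrins, and that of human ADAM15 holds the RGD sequence recognised by integrins containing alpha V. ADAMTS proteases are secreted, bind the matrix through thrombospondin repeats, and cut proteoglycans, procollagens and other matrix proteins. In the retina, loss of ADAM9 is known to cause a cone-rod dystrophy, and variants of the inhibitor TIMP3, which RPE secretes into its basement membrane, cause Sorsby fundus dystrophy.

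Levels are given as the authors' FPKM (fragments per kilobase of gene length, scaled to the size of the library). Genes are compared on this scale, which depends on the annotated exon length of each gene rather than on the transcripts expressed. Changes are log2 fold changes of OE CD51 ICD over NC from edgeR's quasi-likelihood test on the deposited counts, with a standard error (SE) and a Benjamini-Hochberg adjusted p over all 13787 genes tested. Genes with an adjusted p below 0.05 are said to have passed the test, or to have been called. Means are ± SD over n = 3 libraries per group.

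Total counts ran from 14577912 to 15640428 in OE CD51 ICD and from 13616694 to 16934668 in NC. The overexpressed gene was 53.8 ± 9.33 FPKM in OE CD51 ICD and 11.9 ± 1.52 FPKM in NC (ITGAV), and its count does not separate construct from endogenous transcript. Of 9 RPE markers, 6 were tested, and RPE65 had no count in any library. PMEL (log2 0.80) and RLBP1 (log2 0.81) were higher, MITF (log2 -0.56) was lower, and the keratin genes KRT8 and KRT18 and OTX2 did not pass. The summed level of these 9 markers was 877 to 1048 FPKM in OE CD51 ICD and 999 to 1077 FPKM in NC, nearly all of it from KRT8 and KRT18. Of 7 fibroblast markers, only COL1A1 and PDGFRB were tested, both were higher, and DCN had no count. The summed level of these 7 markers was 177 to 221 FPKM in OE CD51 ICD and 32.1 to 37.8 FPKM in NC. Nearly all of it came from COL1A1 (146 FPKM in OE CD51 ICD and 3.33 in NC) and PDGFRB (53.9 and 31.0 FPKM). COL1A2, COL3A1, PDGFRA and LUM had at most 13 counts over the libraries of either group. Of 7 microglia and macrophage markers only CSF1R was tested and it was higher, with a summed level of 5.77 to 7.33 FPKM in OE CD51 ICD and 0.497 to 0.836 FPKM in NC, while P2RY12 had no count. The summed level of 4 endothelial markers was 0.0681 to 0.203 FPKM in OE CD51 ICD and 0.281 to 0.362 FPKM in NC. The part of these markers in the results below was not tested, and in bulk libraries a change in the number of cells of a type cannot be told apart from a change in RNA per cell.

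The mix of these proteases differed between the groups. ADAM19, ADAM12, ADAM9 and ADAMTS12 were higher, and ADAM15, ADAMTS1, ADAMTS2, ADAMTS5 and ADAMTS9 were lower. ADAMTS4 had 0 counts over the OE CD51 ICD libraries and 2 over the NC libraries and was not tested. In all, 4 of the 9 tested members were higher and 5 were lower, where 25.2% of all genes tested were higher and 25.8% lower, together 51.0% called. In each of the 9 tested members the CPM values (counts scaled to library size) of the groups did not overlap, which was so for 57.5% of all genes tested. As the members were picked with earlier results of these data known, these counts only describe them. The median log2 fold change of the 9 was -0.40, against 0.01 over all genes tested. Each of the 9 had at least 777 counts over the OE CD51 ICD libraries and at least 1076 over the NC libraries. By at least 2-fold, ADAM19 and ADAM12 were higher, against 6.89% of all genes tested, and ADAMTS1 was lower, against 5.83%. ADAMTS2 stood at the 2-fold edge.

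**Figure D1:**
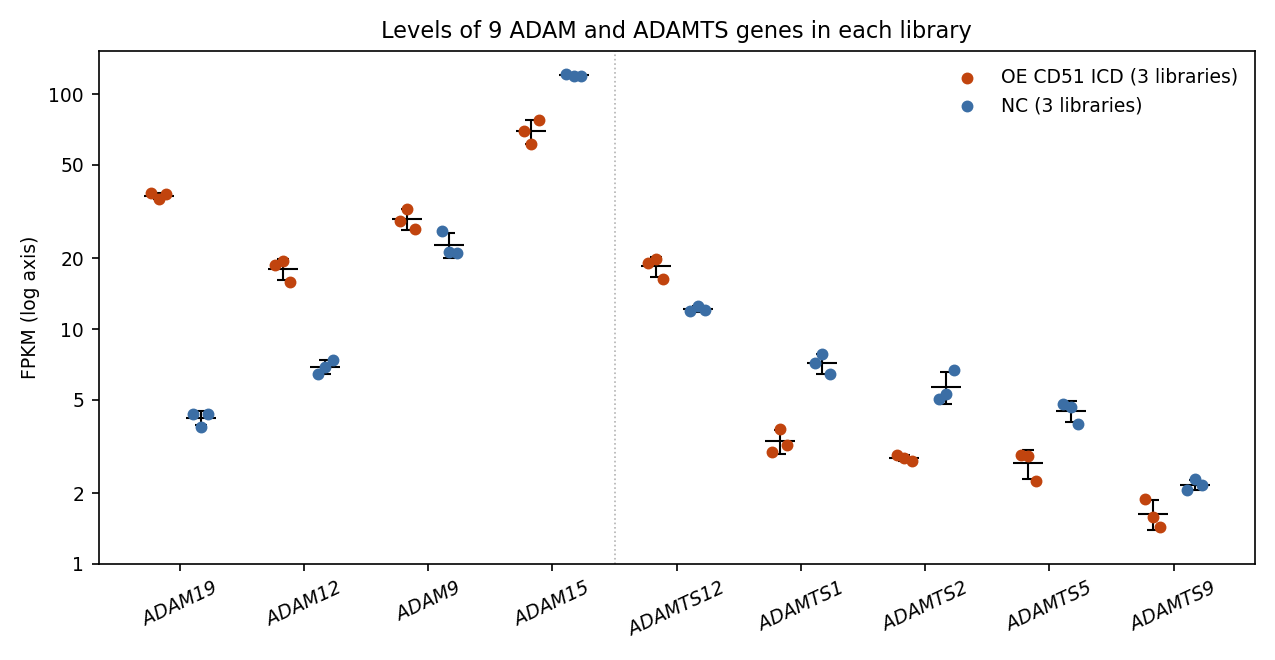
FPKM (log axis) of 9 members in each library, OE CD51 ICD left and NC right within each gene; points are libraries, bars are means ± SD (n = 3 each), and the dotted line separates ADAM from ADAMTS genes. ADAM19 stands second in OE CD51 ICD (37.0 ± 1.11 FPKM) and near the bottom of the set in NC (4.18 ± 0.294 FPKM), and ADAM15 is the most abundant in both groups.

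Among the membrane-bound ADAMs, ADAM19 (meltrin beta), which sheds neuregulin-type precursors, changed most. Its gene (ENSG00000135074, chromosome 5, 157395534 to 157575775, minus strand, GRCh38) stood at 37.8, 35.8 and 37.5 FPKM in the OE CD51 ICD libraries, against 4.33, 3.84 and 4.36 FPKM in the NC libraries. The 3 libraries of each group lay close together and far from the other group. ADAM19 rose 8.90-fold (log2 3.15 ± 0.09 SE, edgeR adjusted p = 2.10e-22), a log2 fold change that ranked 98 from the top among 13787 genes. Exons of ADAM19 share 62 bases, 0.805% of its exon length, with CYFIP2 on the opposite strand, and the use of strand in counting is not given in the sources used here. CYFIP2 averaged 16.1 ± 0.428 FPKM in OE CD51 ICD and 15.6 ± 2.19 FPKM in NC, with a log2 fold change of 0.06 ± 0.09 SE, and did not pass the test (edgeR adjusted p = 0.621).

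ADAM12 (meltrin alpha), which cuts IGF-binding proteins and heparin-binding growth factor precursors, also rose. Its gene (ENSG00000148848, chromosome 10, 126012381 to 126388455) had 18.7, 19.5 and 15.9 FPKM in the OE CD51 ICD libraries, against 6.41, 6.90 and 7.38 FPKM in the NC libraries. The lowest OE CD51 ICD library was more than 2-fold above the highest NC library. The rise was 2.63-fold (log2 1.40 ± 0.09 SE, edgeR adjusted p = 1.21e-13). Within each library the ratio of ADAM19 to ADAM12, in FPKM, was 2.02, 1.83 and 2.36 in OE CD51 ICD, against 0.675, 0.556 and 0.591 in NC. ADAM19 was thus the more abundant of the 2 meltrins in all 3 OE CD51 ICD libraries and the less abundant in all 3 NC libraries. For the difference of this ratio between the groups, the exact two-sided permutation test gave p = 0.1, the smallest that 3 against 3 libraries allow.

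ADAM9 (meltrin gamma), a widely expressed sheddase (ENSG00000168615, chromosome 8), rose least. It had 28.8, 32.5 and 26.8 FPKM in the OE CD51 ICD libraries, against 26.1, 21.3 and 21.0 FPKM in the NC libraries. The lowest OE CD51 ICD library and the highest NC library were close to each other. The rise was 1.29-fold (log2 0.37 ± 0.09 SE, edgeR adjusted p = 0.00122). With each library's trend with GC content removed, the log2 fold change was 0.16 ± 0.06 SE (edgeR adjusted p = 0.0462), and ADAM9 no longer passed in limma on log2(FPKM + 1) (adjusted p = 0.0715; 6.93e-05 to 0.0715 over its alternatives).

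ADAM15 (metargidin), the member with the RGD-bearing disintegrin domain, went the other way. Its gene (ENSG00000143537, chromosome 1, 155050566 to 155062775, plus strand) had 69.6, 61.4 and 77.5 FPKM in the OE CD51 ICD libraries, against 122, 120 and 120 FPKM in the NC libraries. All 3 NC libraries were nearly equal, the OE CD51 ICD libraries were more spread, and the groups were well apart. ADAM15 fell to 0.579 of its NC level (log2 -0.79 ± 0.08 SE, edgeR adjusted p = 2.16e-09), and to a log2 fold change of -0.51 ± 0.06 SE with the GC trend removed, where it still passed the test. Its longest transcript has a GC content of 63.9%, higher than that of 94.7% of tested genes, while that of ADAM9 is 39.4%, higher than 12.9% of them. It remained the most abundant member in every library. DCST1, on the same strand, shares 306 exon bases with ADAM15 and had 10 counts over the 6 libraries.

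The opposite moves of ADAM15 and ADAM19 can also be given as a ratio within a library, which restates both changes without scaling between libraries. ADAM15 exceeded ADAM19 by 1.84, 1.72 and 2.07 times in FPKM in the OE CD51 ICD libraries, against 28.3, 31.2 and 27.4 times in the NC libraries. The summed FPKM of the 10 members was 183 ± 2.65 in OE CD51 ICD and 186 ± 3.21 in NC, with overlapping ranges of 180 to 185 and 184 to 190. Of that sum, ADAM15 took 38.0 ± 4.06% in OE CD51 ICD and 64.8 ± 0.416% in NC. ADAM19 took 20.3 ± 0.321% in OE CD51 ICD and 2.25 ± 0.153% in NC. The shares of ADAM12 were 9.85 ± 1.10% in OE CD51 ICD and 3.71 ± 0.326% in NC. The 4 ADAM members summed to 154 ± 4.58 FPKM in OE CD51 ICD and 154 ± 4.04 FPKM in NC.

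**Figure D2:**
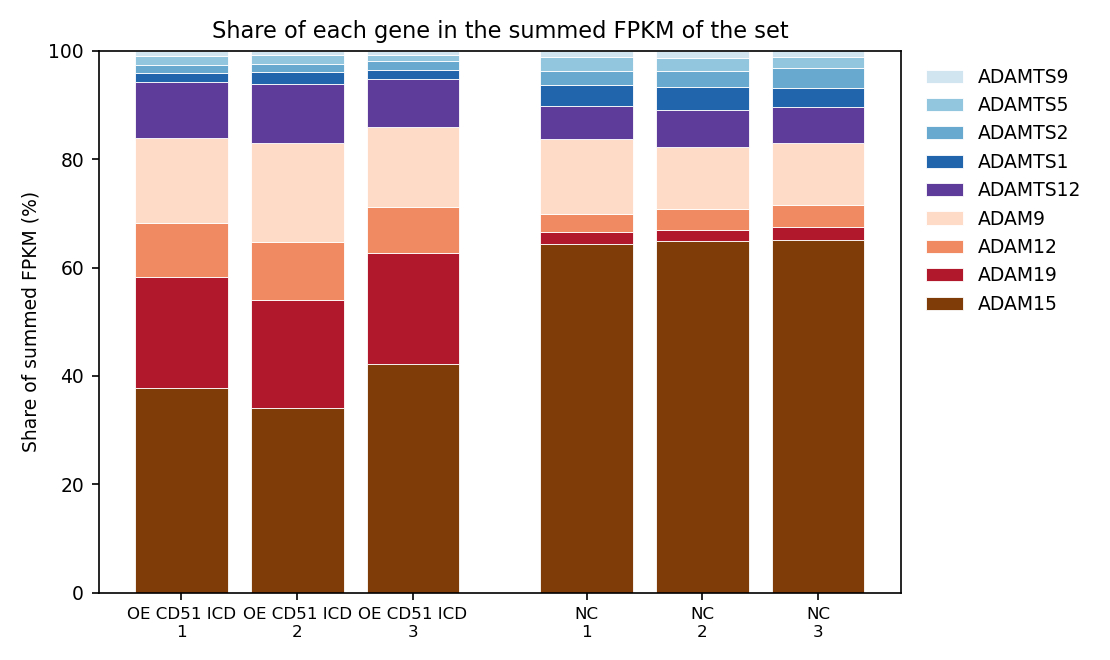
Share (%) of each member in the summed FPKM of the set, 1 bar per library, OE CD51 ICD replicates left and NC replicates right. ADAM15 fills 34.1 to 42.2% of the OE CD51 ICD bars and 64.3 to 65.1% of the NC bars, and ADAM19 fills 19.9 to 20.5% of the OE CD51 ICD bars and 2.08 to 2.38% of the NC bars.

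Of the secreted ADAMTS members, ADAMTS12, which degrades cartilage oligomeric matrix protein, was the only one of the 5 tested that rose. Its gene (ENSG00000151388, chromosome 5, 33523535 to 33892192) had 19.1, 19.8 and 16.4 FPKM in the OE CD51 ICD libraries, against 11.9, 12.5 and 12.1 FPKM in the NC libraries. Each OE CD51 ICD library was above each NC library, and the third OE CD51 ICD library was the lowest of its group, as it was for ADAM12 and ADAM9. The rise was 1.53-fold (log2 0.61 ± 0.09 SE, edgeR adjusted p = 6.20e-07).

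ADAMTS1 and ADAMTS5, which cut the large proteoglycans versican and aggrecan, both fell. ADAMTS1 (ENSG00000154734) had 3.0, 3.76 and 3.20 FPKM in the OE CD51 ICD libraries, against 7.17, 7.82 and 6.42 FPKM in the NC libraries. Its level fell to 0.468 of that in NC (log2 -1.09 ± 0.11 SE, edgeR adjusted p = 2.12e-09), the deepest fall of the set. ADAMTS5 (ENSG00000154736) had 2.90, 2.89 and 2.25 FPKM in the OE CD51 ICD libraries, against 4.81, 4.67 and 3.96 FPKM in the NC libraries. That is a fall to 0.602 of the NC level (log2 -0.73 ± 0.12 SE, edgeR adjusted p = 6.06e-06). Neither gene's groups overlapped, and the lowest NC library of each was well above its highest OE CD51 ICD library. The genes are neighbours on chromosome 21, both on the minus strand, ADAMTS1 from 26835747 to 26845409 and ADAMTS5 from 26917912 to 26966513, with 72502 bases and no other gene of the deposited table between them. The ratio of ADAMTS1 to ADAMTS5 was 1.25 ± 0.198 in OE CD51 ICD and 1.59 ± 0.0949 in NC, in FPKM (exact two-sided permutation test, p = 0.1, the smallest possible).

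ADAMTS2, which removes the amino-terminal propeptide of fibrillar procollagens, fell by about as much as ADAMTS1. Its gene (ENSG00000087116, chromosome 5, 179110851 to 179345430) had 2.90, 2.83 and 2.73 FPKM in the OE CD51 ICD libraries, against 5.05, 5.29 and 6.69 FPKM in the NC libraries. The OE CD51 ICD libraries were nearly equal and all below the NC libraries, of which the third was the highest. The log2 fold change was -1.0 ± 0.11 SE (edgeR adjusted p = 1.08e-08), at the edge of 2-fold, and lay between -1.08 and -0.80 over its alternatives.

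ADAMTS9, a versican-cutting protease of the cell surface region (ENSG00000163638, chromosome 3, 64515654 to 64688000), fell least. It had 1.89, 1.58 and 1.43 FPKM in the OE CD51 ICD libraries, against 2.06, 2.29 and 2.16 FPKM in the NC libraries. The highest OE CD51 ICD library came close to the lowest NC library without overlap. The fall was to 0.758 of the NC level (log2 -0.40 ± 0.13 SE, edgeR adjusted p = 0.0106). The call was lost without OE CD51 ICD replicate 3, without NC replicate 2 and in limma on log2(FPKM + 1) (adjusted p = 0.0563, 0.0502 and 0.1; 0.00250 to 0.1 over its alternatives). Summed over ADAMTS1, ADAMTS2, ADAMTS5 and ADAMTS9, the level was 10.5 ± 0.766 FPKM in OE CD51 ICD and 19.5 ± 0.551 FPKM in NC. These 4 were summed because they were lower, so this sum only restates their falls. All 6 ADAMTS members summed to 28.9 ± 2.57 FPKM in OE CD51 ICD and 31.6 ± 0.850 FPKM in NC. Their ranges were 26.0 to 30.9 and 31.0 to 32.6 FPKM. ADAMTS4, the remaining proteoglycan-cutting member (ENSG00000158859, chromosome 1, 161184308 to 161199056), is at or under the 3 counts that counting error allows in both groups, so no fold is given.

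The order of the members by mean FPKM therefore differed between the groups. In OE CD51 ICD it ran ADAM15, ADAM19, ADAM9, ADAMTS12, ADAM12, ADAMTS1, ADAMTS2, ADAMTS5 and ADAMTS9. The libraries of ADAMTS12 and ADAM12 overlapped, as did those of ADAMTS2 and ADAMTS5. In NC it ran ADAM15, ADAM9, ADAMTS12, ADAMTS1, ADAM12, ADAMTS2, ADAMTS5, ADAM19 and ADAMTS9. There ADAMTS1 overlapped with ADAM12, ADAM12 with ADAMTS2, and ADAMTS5 with ADAM19. By mean FPKM within a group, ADAM15 was above 96.1% of tested genes in OE CD51 ICD and above 97.7% in NC. ADAM19 was above 92.3% in OE CD51 ICD and above 56.2% in NC. ADAMTS9 was above 35.2% in OE CD51 ICD and above 43.1% in NC.

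RefSeq promoters (GRCh38.p14) were examined for 5 members only: ADAM12, ADAM15, ADAM19, ADAMTS2 and ADAMTS12. Those of the other members were not examined, so nothing is said of their motifs. The 250 bases before the RefSeq start site were searched on both strands for TGANTCA (AP-1), CAGACA (SMAD) and GGAATG (TEAD). The letters of these motifs stand in 6.57%, 13.6% and 11.9% of all 35116 RefSeq promoters of that length. ADAMTS12 was the only one of the 5 with a match. It held 1 AP-1 match, TGAATCA, whose last base lies 78 bases before the start, and 1 TEAD match on the opposite strand, 114 bases before it. Both lie within ADAMTS12 as the deposited table bounds it, up to 33892192, and the whole window searched for ADAM15, 155051066 to 155051315, lies within ADAM15 as that table bounds it. The promoters of ADAM12, ADAM15, ADAM19 and ADAMTS2 held none of the 3 motifs, and the 2 matches do not overlap. Shown are the promoters of the members that rose most, ADAM19 at chr5:157575776-157576025 and ADAM12 at chr10:126388478-126388727, and of a member that fell, ADAMTS2 at chr5:179345462-179345711. The last line gives 30 bases around the AP-1 match of ADAMTS12 at chr5:33892056-33892085, with the match in capitals. All are on the minus strand and read 5′ to 3′ on it.
ADAM19: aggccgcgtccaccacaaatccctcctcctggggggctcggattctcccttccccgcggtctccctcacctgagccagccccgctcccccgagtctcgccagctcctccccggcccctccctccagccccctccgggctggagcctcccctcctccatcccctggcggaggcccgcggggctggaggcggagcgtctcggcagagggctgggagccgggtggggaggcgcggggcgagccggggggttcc
ADAM12: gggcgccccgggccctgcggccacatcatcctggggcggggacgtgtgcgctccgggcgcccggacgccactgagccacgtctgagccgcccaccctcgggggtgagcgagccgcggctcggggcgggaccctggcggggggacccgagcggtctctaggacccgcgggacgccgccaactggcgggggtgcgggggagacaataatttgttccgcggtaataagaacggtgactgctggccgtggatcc
ADAMTS2: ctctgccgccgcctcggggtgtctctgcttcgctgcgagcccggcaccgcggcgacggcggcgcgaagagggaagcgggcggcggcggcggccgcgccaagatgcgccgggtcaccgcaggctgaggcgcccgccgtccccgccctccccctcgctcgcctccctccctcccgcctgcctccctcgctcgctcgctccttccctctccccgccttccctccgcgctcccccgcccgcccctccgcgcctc
ADAMTS12: acactgtcagcTGAATCActccccttttag
All 5 promoters were rich in G and C. That of ADAMTS2 held 40 CG pairs, more than 97.8% of promoters, and that of ADAM15 held 36, more than 95.1%. ADAM12 had 31 and ADAM19 and ADAMTS12 21 each, where the median promoter has 11. Among these 5 genes, the 3 that were higher thus had fewer CG pairs than the 2 that were lower, and no test was made. This leaves out ADAM9, which was higher, and ADAMTS1, ADAMTS5 and ADAMTS9, which were lower.

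Seen across both families, 40 genes were considered, of which 21 were tested. Of these 9 were higher, 5 lower, and 7 missed the threshold, so that 66.7% were called, against 51.0% of all genes tested. The members, picked with earlier results of these data known, make up much of this share. Of the other genes 33.3% were called in the ADAM family and 3 of 6 in the ADAMTS family, neither above that background. The 5 that fell are the 5 members named above. Of 17 other ADAM genes, 6 were tested; ADAM10 and ADAM17 were higher and 4 did not pass. ADAM10, the main alpha-secretase and Notch sheddase, was 5.83 ± 0.837 FPKM in OE CD51 ICD and 3.20 ± 0.315 FPKM in NC (log2 0.87 ± 0.10 SE, edgeR adjusted p = 3.16e-08). ADAM17, which releases TNF and EGF receptor ligands, was 3.06 ± 0.392 FPKM in OE CD51 ICD and 1.86 ± 0.142 FPKM in NC (log2 0.72 ± 0.12 SE, edgeR adjusted p = 1.10e-05). Both were thus present at a lower level per length than ADAM9, ADAM12, ADAM15 and ADAM19 in OE CD51 ICD.

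Of 13 other ADAMTS genes, 6 were tested, 3 were higher and 3 did not pass. ADAMTS6, which acts on fibrillin microfibrils, was 1.41, 1.34 and 1.03 FPKM in the OE CD51 ICD libraries, against 0.174, 0.205 and 0.0315 FPKM in the NC libraries. The third NC library was far below the other NC libraries, and the groups did not overlap. The rise was 9.16-fold (log2 3.20 ± 0.29 SE, edgeR adjusted p = 1.51e-10), from 55 counts over the NC libraries. On log2(FPKM + 1), a scale that understates changes at low levels, the log2 change was 0.99, and it ranged up to 3.55 over the alternatives. ADAMTS15, a versican-cutting protease, was 19.6 ± 1.73 FPKM in OE CD51 ICD and 10.7 ± 0.779 FPKM in NC (log2 0.89 ± 0.09 SE). ADAMTS7, the closest relative of ADAMTS12, was 9.11 ± 0.320 FPKM in OE CD51 ICD and 6.58 ± 0.461 FPKM in NC (log2 0.48 ± 0.09 SE). ADAMTS16, with 4 counts over OE CD51 ICD and 30 over NC, was not tested.

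**Figure D3:**
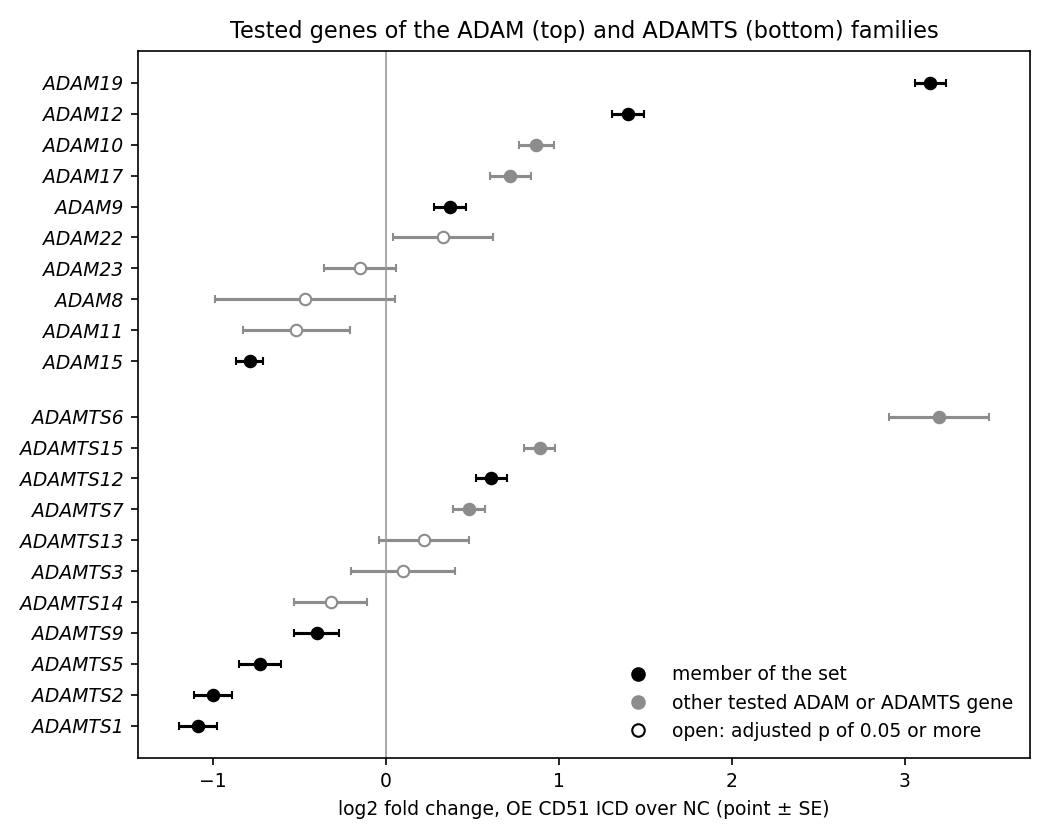
Log2 fold change of OE CD51 ICD over NC (point ± SE) for the 21 tested genes of both families, ADAM above and ADAMTS below; black marks members, grey other genes, and open symbols genes that did not pass the test. ADAM19 (3.15) and ADAMTS6 (3.20) stand apart on the right, and the 5 called falls are ADAM15, ADAMTS1, ADAMTS2, ADAMTS5 and ADAMTS9.

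The ADAMTS-like genes encode secreted relatives without a protease domain. Of 6 tested, 33.3% were called, from few genes, against 51.0% of all genes tested. PAPLN (papilin) was higher, at 2.10 ± 0.10 FPKM in OE CD51 ICD and 1.21 ± 0.150 FPKM in NC (log2 0.80 ± 0.15 SE). ADAMTSL1 was lower, at 0.0897 ± 0.0175 FPKM in OE CD51 ICD and 0.220 ± 0.0467 FPKM in NC (log2 -1.28 ± 0.30 SE). In limma on log2(FPKM + 1) it missed the threshold narrowly (adjusted p = 0.05 after rounding; 1.64e-04 to 0.05 over its alternatives).

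Inhibitor genes went both ways: of 5 tested, TIMP3 and RECK were higher, TIMP2 was lower, and the remaining ones did not pass. That is 60.0% called, from few genes, against 51.0% of all genes tested. TIMP3, the inhibitor that acts on several ADAM and ADAMTS proteases, was 79.8, 74.8 and 73.8 FPKM in the OE CD51 ICD libraries, against 60.0, 61.9 and 72.3 FPKM in the NC libraries. The third NC library lay just under the OE CD51 ICD range, and the log2 fold change was 0.24 ± 0.08 SE (edgeR adjusted p = 0.0145). The call was lost without OE CD51 ICD replicate 1, NC replicate 1 or NC replicate 2 and in limma on log2(FPKM + 1) (adjusted p = 0.0936, 0.117, 0.0903 and 0.107; 0.00262 to 0.117 over its alternatives). RECK, a membrane-anchored inhibitor, was 4.35 ± 0.754 FPKM in OE CD51 ICD and 2.57 ± 0.294 FPKM in NC (log2 0.77 ± 0.14 SE). TIMP2 was 110 ± 6.20 FPKM in OE CD51 ICD and 202 ± 24.8 FPKM in NC (log2 -0.87 ± 0.08 SE).

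Among 17 tested genes for maturation, partners and clearance of these proteases, 7 rose, 2 fell and 8 did not pass. The 52.9% called is close to the 51.0% of all genes tested, so the count says nothing about these genes as a group. SH3PXD2A encodes Tks5, an adaptor that binds the cytoplasmic tails of ADAM12, ADAM15 and ADAM19. It had 0.994, 1.25 and 1.36 FPKM in the OE CD51 ICD libraries, against 0.132, 0.143 and 0.126 FPKM in the NC libraries, a 9.0-fold rise (log2 3.17 ± 0.21 SE, edgeR adjusted p = 1.09e-13). On log2(FPKM + 1) the log2 change was 0.95, and it ranged up to 3.30 over the alternatives. Its paralogue SH3PXD2B, named after its values were seen, was lower, at 1.05 ± 0.0963 FPKM in OE CD51 ICD and 1.80 ± 0.385 FPKM in NC (log2 -0.78 ± 0.16 SE). LRP1, an endocytic receptor that clears ADAMTS5 and TIMP3, was 228 ± 13.4 FPKM in OE CD51 ICD and 101 ± 6.70 FPKM in NC (log2 1.18 ± 0.08 SE). TSPAN14, a tetraspanin partner of ADAM10, was 15.5 ± 0.990 FPKM in OE CD51 ICD and 8.02 ± 0.537 FPKM in NC (log2 0.96 ± 0.08 SE). FURIN, the convertase that removes their prodomains and also named after its values were seen, had 101, 85.1 and 111 FPKM in the OE CD51 ICD libraries, against 54.1, 52.4 and 54.0 FPKM in the NC libraries (log2 0.89 ± 0.08 SE).

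Of 35 genes listed as substrates, 19 were tested and 16 were not. Of those tested 15 were higher, 1 was lower and 3 did not pass, which is 78.9% higher against 25.2% of all genes tested. The lists were drawn up with earlier results of these data known, so this contrast describes the listed genes only. Of the 7 procollagen genes listed as substrates of ADAMTS2 and its relatives, 3 were tested and all 3 were higher, while ADAMTS2 itself was lower. The 3 procollagen genes were COL1A1, also a fibroblast marker (log2 5.47 ± 0.14 SE), COL11A1 (log2 1.43 ± 0.09 SE) and COL5A2 (log2 1.11 ± 0.09 SE). The relatives ADAMTS3 (log2 0.10 ± 0.30 SE) and ADAMTS14 (log2 -0.32 ± 0.21 SE) did not pass the test. Both were named after their values were seen. Of 12 proteoglycans and related matrix genes, 6 were tested, 5 were higher and 1 did not pass, and 5 of the 12 had no count. Of the 5 that were higher only VCAN is a proteoglycan gene; the others, FN1, THBS1, NID1 and NID2, encode matrix glycoproteins. Versican (VCAN) was at 0.0799 ± 0.0217 FPKM in OE CD51 ICD and 0.0263 ± 0.00589 FPKM in NC, from 53 and 18 counts in all (log2 1.61 ± 0.46 SE, edgeR adjusted p = 0.00429). The call did not hold in limma on log2(FPKM + 0.1) and on log2(FPKM + 1) (adjusted p = 0.0679 and 0.125; 0.00349 to 0.125 over its alternatives). Aggrecan (ACAN) had 1 count in OE CD51 ICD and 0 in NC. Of 10 tested genes listed as ADAM substrates, 7 rose, 1 fell and 2 did not pass. The largest changes were in PDGFB (log2 3.71 ± 0.11 SE), IGFBP5 (log2 3.62 ± 0.15 SE) and IGFBP3 (log2 2.54 ± 0.10 SE), the last 2 being binding proteins cut by ADAM12. PDGFB is counted here as listed, and its cleavage by an ADAM protease was not examined. The median log2 fold change of the tested genes was 1.43 for procollagens, 1.48 for proteoglycans and related genes, 0.82 for ADAM substrates, 0.29 for maturation and clearance genes and 0.02 for inhibitors, against 0.01 over all genes tested.

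**Figure D4:**
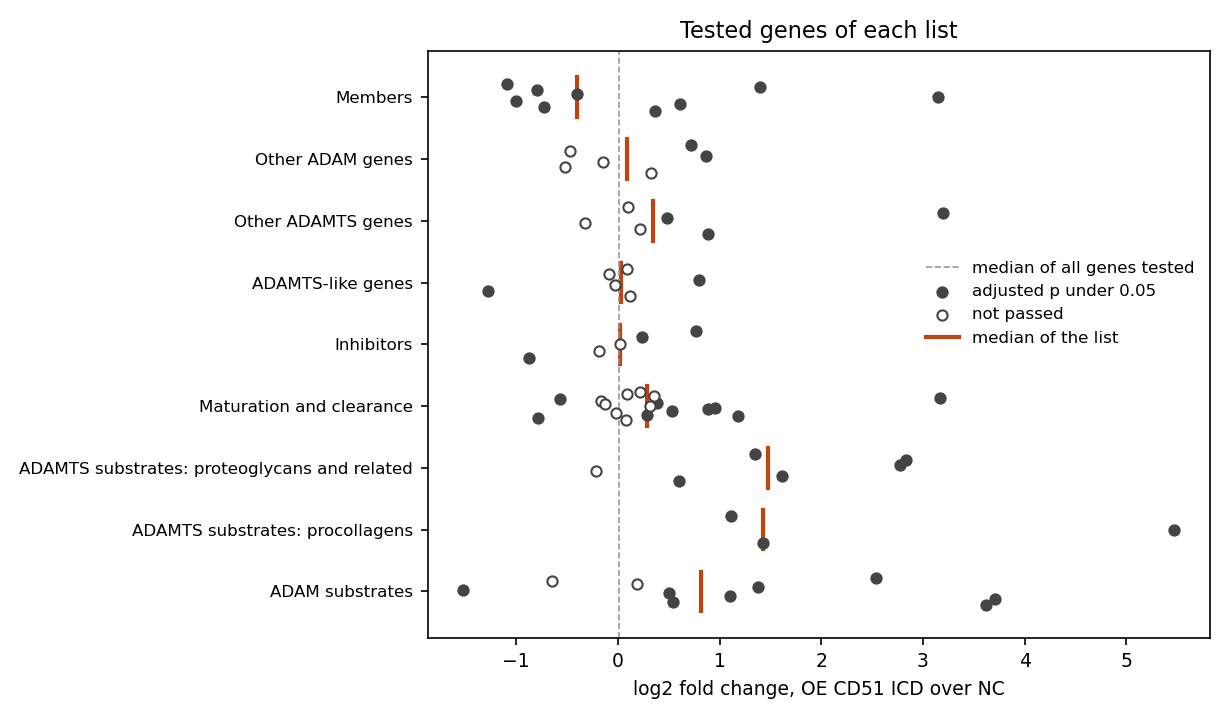
Log2 fold change of OE CD51 ICD over NC for the tested genes of each list, 1 point per gene (filled, adjusted p under 0.05; open, not passed), with the median of each list as a bar and that of all genes tested as a dashed line. The members lie on both sides of 0 (median -0.40), and the tested genes listed as substrates lie mostly to the right (medians 1.48, 1.43 and 0.82). The lists were drawn up with earlier results known.

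The genes most like a member in their course over the 6 libraries were found among 9574 protein-coding genes averaging 5 CPM or more, by the root mean square difference of centred log2 CPM. For ADAM19 they were TGM2, JUNB and VEGFA, with differences of 0.0693, 0.105 and 0.122 on the log2 scale. TGM2 was 90.8 ± 5.12 FPKM in OE CD51 ICD and 10.1 ± 0.173 FPKM in NC. For ADAM15 they were SAE1, SBF1 and RCC1, with differences of 0.0127, 0.0193 and 0.0202 on the log2 scale. SAE1 was 44.9 ± 4.60 FPKM in OE CD51 ICD and 77.5 ± 0.734 FPKM in NC. With 2 groups of 3 libraries, this likeness rests mainly on the size of the difference between the groups.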

How the data were processed

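The authors deposited whole-number gene counts and FPKM values for the same 6 libraries and 58735 genes. Per the file headers both tables give gene IDs, symbols, coordinates and gene length, and all 58735 IDs and coordinates matched GENCODE 29 (GRCh38); the submitters' processing notes name hg38. Per the labels' protocols, RNA came from a reagent or a column kit and libraries from a SMARTER mRNA kit; the aligner and the counter were not given in the sources used here. The deposited FPKM values are those counts per gene length and 1 constant per library, and were used for levels.

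Tests on the counts used edgeR 4.0.16 under R 4.3.3: filterByExpr left 13787 genes, with TMM scaling, glmQLFit and glmQLFTest, two-sided. The test was run on simulated data with 200 of 13787 genes changed. There 78% of the genes changed by 1 on the log2 scale were called, and 2.87% of calls were false. As 51.0% of genes were called in the real data, the simulation does not check scaling or error rates in that setting. The SE was derived from the F statistic. Replicates of a group differed by more than counting noise. Intervals of counts were not used, and floors cover counting error only. Alternatives used DESeq2 1.42.0, limma 3.58.1, other scalings and filters, removal of a loess trend with transcript GC content, a replicate block and leaving out each library. Tables and plots used matplotlib 3.10.9, SciPy 1.17.1, pandas 2.3.3 and NumPy 2.4.6 (Python 3.11.15).

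Members and lists were chosen with earlier results of these data known. The ratios between members were not planned, and for any ratio that separates the groups the exact two-sided permutation test gives p = 0.1. All 10 members were named. From lists with more than 6 called genes the 3 with the largest change and a mean of at least 1 CPM were named, and from shorter ones any called gene could be. Protein sequences, planned as a description, were not used here.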

Additional observations from a re-analysis of the deposited data

How the results depend on the processing

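The values of the 9 tested members were recomputed under 17 alternatives. Of 153 values, 149 stayed on the same side of the threshold, 4 were no longer past it (ADAM9 once, ADAMTS9 3 times, as given above) and 0 changed direction. Over all alternatives ADAM19 stayed between 2.88 and 3.27, ADAM12 between 1.27 and 1.49, ADAMTS12 between 0.55 and 0.70, ADAM15 between -0.86 and -0.51, ADAMTS1 between -1.19 and -0.91, ADAMTS2 between -1.08 and -0.80 and ADAMTS5 between -0.93 and -0.58 on the log2 scale. Of 492 values of 29 other named genes, 483 kept direction and side, 7 lost the call and 2 changed sign. These were both of CYFIP2, which was not called: -0.01 with library size only and -0.03 without NC replicate 2 (-0.03 to 0.16 over single libraries left out). On log2(FPKM + 1) the log2 change of genes of low level shrank, to -0.16 for ADAMTSL1, 0.07 for VCAN and 2.95 for IGFBP5. The shift of the median of all genes was -0.05 with library size only and 0.06 with upper-quartile scaling.

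Counts of list genes that moved were small. Among other ADAMTS genes 1 was lower under DESeq2 and without a count filter (ADAMTS16, tested there). Of the ADAMTS-like genes 2 were higher with the GC trend removed, and 0 lower in limma on log2(FPKM + 1). Of the inhibitors 1 was higher in limma on log2(FPKM + 1) and 2 were lower with library size only; with single libraries left out, 1 to 2 were higher and 1 to 2 lower (2 without OE CD51 ICD replicate 3). Of the procollagens, 5 were higher without a count filter. Beyond the lower counts tested there, the cause was not tested.

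Same-numbered libraries did not deviate together (correlations of -0.0503, 0.00134 and 0.0510 for replicates 1, 2 and 3), and the labels do not pair them. With the replicate block, 3437 genes were higher and 3552 lower, against 3469 and 3559 without it, and no member call changed. Depth limits what can be said of ADAMTS4 and the other untested genes of both families.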
